A study of Rattus norvegicus with 7 samples.

Results

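Proteasome subunits and ubiquitin-conjugating enzymes were examined in whole lenses of ICR/Ihr rats, a strain with hereditary cataracts. Genes were taken by name: the proteasome genes carry symbols that begin with Psma, Psmb, Psmc, Psmd, Psme, Psmf or Psmg and a number, and the ubiquitin-conjugating enzymes carry symbols that begin with Ube2. Of 18166 named genes on the array, 77 were members, made up of 48 proteasome genes and 29 Ube2 genes. Total RNA of 1 lens sample per age was measured on 7 arrays (GeneChip Rat Gene 2.0 ST), and signals are log2 RMA values (robust multi-array average), on which a difference of 1 is a doubling. Labels place lenses of ICR/Ihr rats at 2 and 4 weeks in no cataracts, at 8 and 10 weeks in cortical opacity, at 12 weeks in posterior subcapsular opacity, and at 14 and 18 weeks in nuclear opacity. No treatment is named, the methods state that lenses for microarrays were from male rats, and the extraction text places the lens in culture medium beforehand. All groups are of the cataract strain and each stage holds its own ages, so that age and stage of opacity cannot be told apart here. Since rats were killed for their lenses, arrays of different ages come from different animals, but how many animals a sample holds is not stated. The p-values rest on the spread within a stage, whose arrays also differ in age.

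The proteasome is the main protease of the cytosol and nucleus. Its 20S core is a barrel of alpha rings, which form the gate, and beta rings, which carry the cutting sites, and the 19S particle caps the barrel with an ATPase ring that unfolds substrates and with other subunits that recognize ubiquitin chains and remove them. Substrates are marked by an E1 enzyme that activates ubiquitin, an E2 enzyme (mostly Ube2 genes) that carries it, and an E3 ligase that selects the target. Lens fibre cells lose their nuclei and organelles while they mature and keep their proteins for life, and the ubiquitin system is active in the epithelium and the outer fibres.

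The methods excluded genes under a signal of 5 in every sample, and the same level was used for the tests. It was reached on at least 1 array by 58 members (38 proteasome and 20 Ube2 genes) and by 5168 of all named genes. The other 19 members stayed under 5. Psmb3, a beta subunit, had its highest signal just outside that level, at 4.79 (2 weeks), and Ube2a, an E2 of DNA damage tolerance, at 4.96 (8 weeks). Just inside were Psma5, an alpha subunit, at 5.10 (4 weeks), and Psmb10, an inducible beta subunit, at 5.10 (2 weeks). Signals of different probe sets are not comparable, so each gene was compared only with itself.

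Lens identity was checked with markers. The 4 measured fibre markers had mean signals of 12.13 to 12.47 on the 7 arrays, and all 4 lens epithelium markers reached 5. None of 6 immune cell markers and none of 9 proliferation markers reached 5. The 2-week array stood apart, with a mean of 4.95 for 5 pigment cell markers against 2.40 to 2.90 on the other arrays. It also had the highest mean of 5 ciliary body and zonule markers, 7.25, against 4.34 to 6.12. The 4-week array came next in the latter (6.12), so that both clear arrays were above all arrays with opacity (4.34 to 5.60). Leaving out the 2-week array does not remove this difference between clear lenses and the others. Results that use the 2-week array are given with and without it where a member passed. In whole lenses, fewer cells of a type and less RNA per cell cannot be told apart.

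Promoters are shown for 4 proteasome genes described below, namely 2 catalytic beta subunits, an activator and the inhibitor. Proteasome genes are known to share promoter elements. Of the 4 genes, Psmb6 and Psmf1 passed in a comparison below, and Psmb5 and Psme4 did not. For Ube2o and Ube2r2, which also passed, no promoter sequence was available. Each sequence is the 250 bases before the gene start in RefSeq (GRCr8), written in the direction of the gene. Capitals mark TGACNNNGC, the core of the antioxidant response element bound by Nfe2l1 and Nfe2l2, and CCAAT, bound by NF-Y, on either strand. The positions are chr15:32047380-32047629 on the minus strand, chr10:55737638-55737887 on the plus strand, chr14:108706393-108706642 on the plus strand and chr3:160720916-160721165 on the minus strand.
Psmb5: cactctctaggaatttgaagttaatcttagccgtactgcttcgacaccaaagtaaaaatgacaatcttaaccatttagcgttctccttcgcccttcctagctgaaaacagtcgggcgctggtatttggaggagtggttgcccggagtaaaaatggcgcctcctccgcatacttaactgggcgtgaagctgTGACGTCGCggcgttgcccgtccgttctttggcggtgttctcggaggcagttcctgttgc
Psmb6: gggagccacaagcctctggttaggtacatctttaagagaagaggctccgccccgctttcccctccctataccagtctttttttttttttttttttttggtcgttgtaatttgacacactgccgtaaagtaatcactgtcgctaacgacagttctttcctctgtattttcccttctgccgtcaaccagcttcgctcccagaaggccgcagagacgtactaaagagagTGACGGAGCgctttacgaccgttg
Psme4: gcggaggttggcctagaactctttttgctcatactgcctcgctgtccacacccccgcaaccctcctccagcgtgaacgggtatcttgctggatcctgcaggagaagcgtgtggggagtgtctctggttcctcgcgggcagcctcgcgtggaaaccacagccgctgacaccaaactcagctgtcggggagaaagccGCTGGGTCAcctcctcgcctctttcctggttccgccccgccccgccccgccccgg
Psmf1: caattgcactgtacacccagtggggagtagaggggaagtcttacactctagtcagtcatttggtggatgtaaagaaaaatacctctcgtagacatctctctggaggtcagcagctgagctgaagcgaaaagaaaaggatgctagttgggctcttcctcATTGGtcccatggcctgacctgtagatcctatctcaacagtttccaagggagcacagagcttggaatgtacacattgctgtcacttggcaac
The antioxidant response element core began 60 bases before the start in Psmb5, 24 bases before it in Psmb6 and, on the opposite strand, 55 bases before it in Psme4. Psmf1 held CCAAT 92 bases before the start, on the opposite strand, and no TGACNNNGC in this window. Of the members, 65 had such a window. TGACNNNGC was present in 6 of 40 proteasome genes (15%) and 5 of 25 Ube2 genes (20%), against 13.1% of tested genes and 10.2% of all 27457 windows. CCAAT was present in 18 of 40 proteasome genes (45%) and 8 of 25 Ube2 genes (32%), against 34.6% of tested genes and 34.3% of all windows. The 2 motifs can share bases where they adjoin, and in the 4 windows printed they did not. A match is a description of the letters and not of binding.

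Nuclear opacity was first compared with no cataracts. Ube2o, Ube2r2 and Psmb6 fell and Psmf1 rose in limma with Benjamini-Hochberg adjustment over all tested genes. Thus 3 of 58 tested members fell, against 4.06% of all tested genes, and 1 of 58 rose, against 2.03%. These shares are near the background.

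Ube2o encodes a large enzyme with both E2 and E3 activity, known in mice for clearing proteins from maturing red blood cells. Its signal was 8.17, 8.23, 7.52, 7.06, 6.92, 6.55 and 6.67 over the 7 ages from 2 to 18 weeks. Both clear lenses had the highest signals, and all 5 arrays with opacity were below them. The difference was -1.59 ± 0.17 (SE, 2 arrays against 2, adjusted p = 0.0185), or 3.01-fold lower in nuclear opacity. Without the 2-week array it was -1.62 (adjusted p = 0.161). Ube2o is among the genes that the study had selected as decreased at earlier ages.

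Ube2r2 encodes an E2 that works with cullin-RING ligases. Its signal was 6.35, 6.23, 5.68, 5.68, 5.32, 5.12 and 5.18 from 2 to 18 weeks. Signals of the stages did not overlap, and nuclear opacity had the lowest. Its values at 8 and 10 weeks were equal (5.6792), so that cortical opacity brought a spread of 0.0 into the test. The difference was -1.14 ± 0.09 (SE, adjusted p = 0.0147). It was -1.09 without the 2-week array (adjusted p = 0.161).

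Psmb6 encodes the caspase-like catalytic subunit of the constitutive core. Its signal was 9.39, 9.58, 9.26, 8.92, 8.64, 8.54 and 8.73 from 2 to 18 weeks. The arrays of nuclear opacity were below both clear arrays, and the 12-week array lay between the 2 nuclear ones. Psmb6 differed by -0.85 ± 0.16 (SE, adjusted p = 0.0464), and by -0.94 without the 2-week array (adjusted p = 0.203). A dimmer probe set for Psmb6, which was not in the test, differed by -0.86.

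Psmf1 encodes PI31, first known as a proteasome inhibitor. Its signal was 8.10, 8.10, 7.74, 7.80, 8.10, 8.53 and 8.68 from 2 to 18 weeks. It was lowest in cortical opacity and highest in nuclear opacity. The difference between nuclear opacity and no cataracts was 0.51 ± 0.10 (SE, adjusted p = 0.0497), also 0.51 without the 2-week array (adjusted p = 0.211). Psmf1 had the same deposited value at 2, 4 and 12 weeks to all decimals. Equal values on 2 or more arrays occurred in 40 of 77 members (51.9%) and in 69% of all named genes, and the part of such ties in the tests was not tested.

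**Figure D1:**
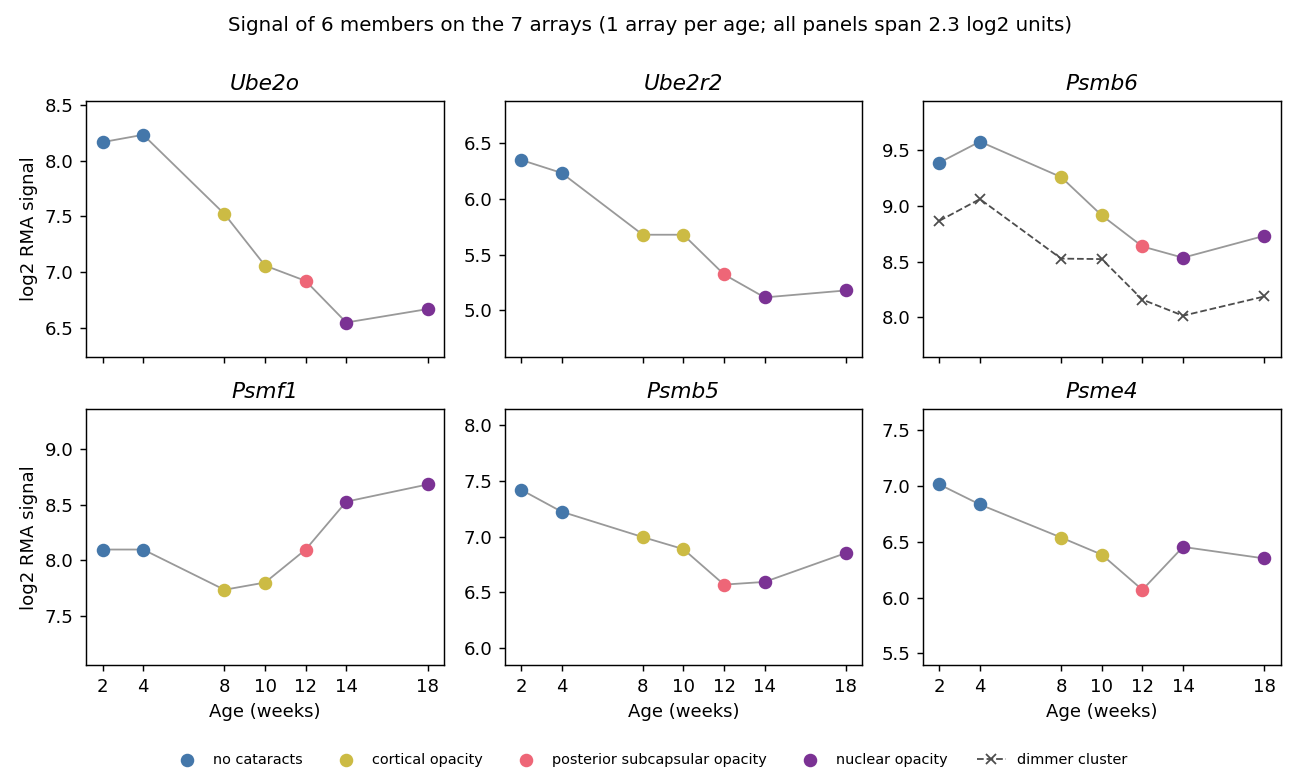
log2 RMA signal (vertical axes) against age in weeks (horizontal axes) for 6 genes, with 1 point per array coloured by stage and, for Psmb6, crosses for its dimmer probe set. Ube2o lies at 6.55 and 6.67 in nuclear opacity and at 8.17 and 8.23 in clear lenses, while Psmf1 dips to 7.74 at 8 weeks and is at 8.68 at 18 weeks.

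All 4 calls were lost without either clear array or either nuclear array, and 3 of them (Ube2r2, Psmb6 and Psmf1) also without either cortical array. Their adjusted p-values without a filter on low signals were 0.0981 to 0.175. Ube2o differed by -1.65 to -1.48 over all alternatives, Ube2r2 by -1.20 to -1.06, Psmb6 by -0.95 to -0.75 and Psmf1 by 0.43 to 0.62.

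Other members did not pass. Psme4 encodes PA200, an activator that caps the core without ATP, and its signal was 7.02, 6.84, 6.54, 6.39, 6.07, 6.45 and 6.35 from 2 to 18 weeks. Both clear arrays lay above all others. It differed by -0.52 ± 0.12 (SE, adjusted p = 0.0643). Psmb5 encodes the chymotrypsin-like subunit, the main target of the drug bortezomib. Its signal was 7.42, 7.22, 7.00, 6.89, 6.57, 6.59 and 6.85 from 2 to 18 weeks, with all arrays with opacity below both clear ones, and its difference was -0.60 ± 0.13 (SE, adjusted p = 0.0664). Ube2f, an E2 that places NEDD8 on cullins, had 6.60, 6.68, 6.75, 6.64, 6.74, 6.89 and 7.18 from 2 to 18 weeks and differed by 0.40 ± 0.13 (SE, adjusted p = 0.137). Psmd7, a 19S lid subunit, differed by 0.37 ± 0.14 (SE, adjusted p = 0.176). Signals of the 2 nuclear arrays were above both clear arrays in 9 of 58 tested members, against 21.6% of tested genes, and below both in 22 of 58, against 33.1%.

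**Figure D2:**
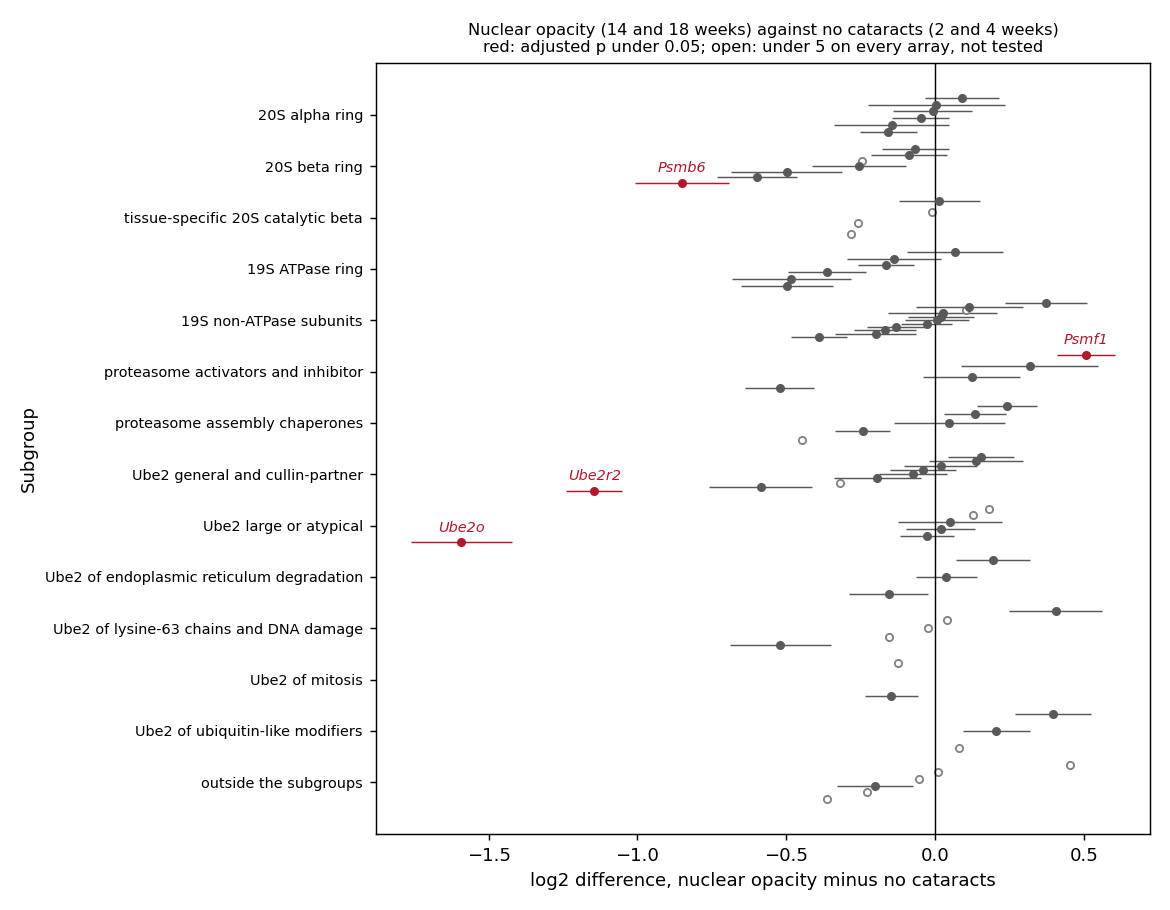
log2 difference, nuclear opacity minus no cataracts (horizontal axis), of the 77 members by subgroup (vertical axis), with bars for the SE of the limma fit in tested members, red for those past the threshold and open points for members under 5, which were not tested. Ube2o (-1.59) and Ube2r2 (-1.14) lie apart on the left, Psmb6 (-0.85) is the lowest proteasome gene, and Psmf1 (0.51) is the highest tested member.

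By subgroup, the measured members were described by counts and medians without a test. The 48 proteasome genes had a median difference of -0.11 between nuclear opacity and no cataracts, with 30 lower, and the 29 Ube2 genes had a median of -0.02, with 15 lower. The median was 0.0 over all named genes and -0.05 over tested genes. Among tested members, 23 of 38 proteasome and 10 of 20 Ube2 genes were lower, against 57.6% of tested genes. After quantile normalization between arrays the proteasome median was -0.01, with 24 of 48 lower, and the Ube2 median was 0.04, so that no direction is given for either family. Mean signals of the 7 members of the 20S beta ring were all lower in nuclear opacity, with a median difference of -0.25. After quantile normalization 5 of 7 were lower (median -0.19). Both nuclear arrays lay below both clear ones only in Psmb2, Psmb5 and Psmb6. At 18 weeks Psmb1 (7.86) was above both clear arrays (7.85 and 7.79), and so was Psmb4 (7.15, against 7.11 on each). Without the 2-week array all 7 were lower, with a median of -0.11. Among them are Psmb5, Psmb6 and Psmb7, the constitutive cutting subunits, with a median of -0.60. All 3 remained lower after quantile normalization (median -0.51), after median centring (-0.58) and without the 2-week array (-0.50). Psmb7, which carries the trypsin-like site, had 8.84, 8.55, 8.77, 8.54, 8.33, 8.33 and 8.55 from 2 to 18 weeks, so that the 18-week signal lay just above the 4-week one. Psmb2, a beta subunit without a cutting site, had 8.23, 8.19, 8.06, 7.62, 7.50, 7.55 and 7.87, with every array from 10 weeks on below 8.

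The 6 members of the 20S alpha ring had a median of -0.03, with 4 lower, and of 0.05 after quantile normalization, with 2 lower. Psma7 had 8.44, 8.44, 8.58, 8.62, 8.48, 8.27 and 8.60 from 2 to 18 weeks. Psma4 ranged over the ages between 6.44 at 12 weeks and 7.22 at 8 weeks. Psma5 lay between 4.88 and 5.10 on 6 arrays and at 4.38 on the 12-week array.

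The 19S ATPase ring had a median of -0.26 in nuclear opacity, with 5 of 6 lower, and of -0.19 after quantile normalization, again with 5 lower. Psmc4 ranged most among them, with 7.39, 6.98, 6.73, 6.72, 6.16, 6.73 and 6.64 from 2 to 18 weeks. Psmc2 had its highest signal at 8 weeks (8.90) and its lowest at 14 weeks (8.02), while Psmc1 ranged between 6.06 and 6.51. In the 11 other 19S subunits the median was 0.01, with 5 lower, but -0.10, with 8 lower, without the 2-week array and 0.10, with 4 lower, after quantile normalization, so that no direction is given. Psmd1, the scaffold that binds ubiquitin receptors, ranged between 7.43 at 12 weeks and 7.88 at 18 weeks. Psmd8, which stayed under 5, had 3.76 at 12 weeks and at most 4.65 (4 weeks).

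The activators and the inhibitor differed among themselves. Psme1 and Psme2 encode the alpha and beta subunits of the interferon-inducible 11S cap. Psme1 was at 5.65 and 5.93 in nuclear opacity, against 5.48 and 5.47 in no cataracts. Psme2 was at 6.73 and 6.91 in nuclear opacity, against 6.65 and 6.75 in no cataracts. Together with Psmf1 they made 3 of 4 genes higher in nuclear opacity, and Psme4 was the lower one. The 5 assembly chaperones had a median of 0.05, and of 0.10 both after quantile normalization and without the 2-week array. Psmg2 stayed under 5, with 4.42 at 2 weeks and 3.35 at 12 weeks, and Psmd9 ranged between 5.86 and 6.29.

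Of the tissue-specific catalytic subunits, those of the immunoproteasome (Psmb8, Psmb9 and Psmb10) and of the thymus (Psmb11), only Psmb10 reached 5. Psmb8 was at 1.93 to 2.49 over the 7 arrays, Psmb9 at 3.69 to 3.93 and Psmb11 at 2.01 to 2.79. Of 9 measured interferon and antigen processing genes 2 reached 5, and none passed in any comparison.

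Among Ube2 genes, those of general use and of cullin ligases had a median of -0.07, with 6 of 9 lower in nuclear opacity, of 0.01 after quantile normalization and of -0.19 without the 2-week array. Ube2k, an E2 that extends lysine-48 chains, was at 9.40 to 9.99, and Ube2d4l1 at 1.42 to 2.46. The large or atypical enzymes had a median of 0.03 although they include Ube2o, and of 0.12 after quantile normalization. Ube2q1 lay between 7.31 and 7.62 and Ube2q2l stayed at 2.91 or lower. The 3 E2s of endoplasmic reticulum degradation had a median of 0.04, of 0.12 after quantile normalization and of -0.06, with 2 lower, without the 2-week array. Ube2j1, anchored in that membrane, was at 6.61 to 6.84, Ube2j2 had its lowest signal (5.26) at 14 weeks, and Ube2g2 was at 4.84 to 5.23.

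Ube2n, which builds lysine-63 chains, had 5.41, 5.86, 5.65, 5.59, 5.57, 5.20 and 5.03 from 2 to 18 weeks and was lowest in nuclear opacity. Ube2b, of DNA damage tolerance, had 6.30, 6.68, 6.92, 6.77, 6.72, 6.83 and 6.96, with the 2-week array lowest. Ube2t, of the Fanconi pathway, was at 3.16 to 3.24. The mitotic Ube2c was at 3.51 to 3.76 and Ube2s, which extends lysine-11 chains, at 6.85 to 7.23. Mean signals of the E2s of ubiquitin-like modifiers were all higher in nuclear opacity, with a median difference of 0.21. This was so under both other scalings (0.22 and 0.27). Ube2m, the other E2 of NEDD8, had 9.25, 9.32, 9.19, 9.42, 9.37, 9.48 and 9.51. Ube2l6, of ISG15, stayed under 5, and only its 14-week signal (4.45) was above the clear ones (4.16 on each). At 18 weeks it was at 4.04. Symbols that matched by letters but fell outside the subgroups were Psmc3ip, a recombination factor and not a subunit, Psme3ip1, Ube2d2b, Psmb3l2 and the pseudogenes Psma6-ps1 and Psmd1-ps1.

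**Figure D3:**
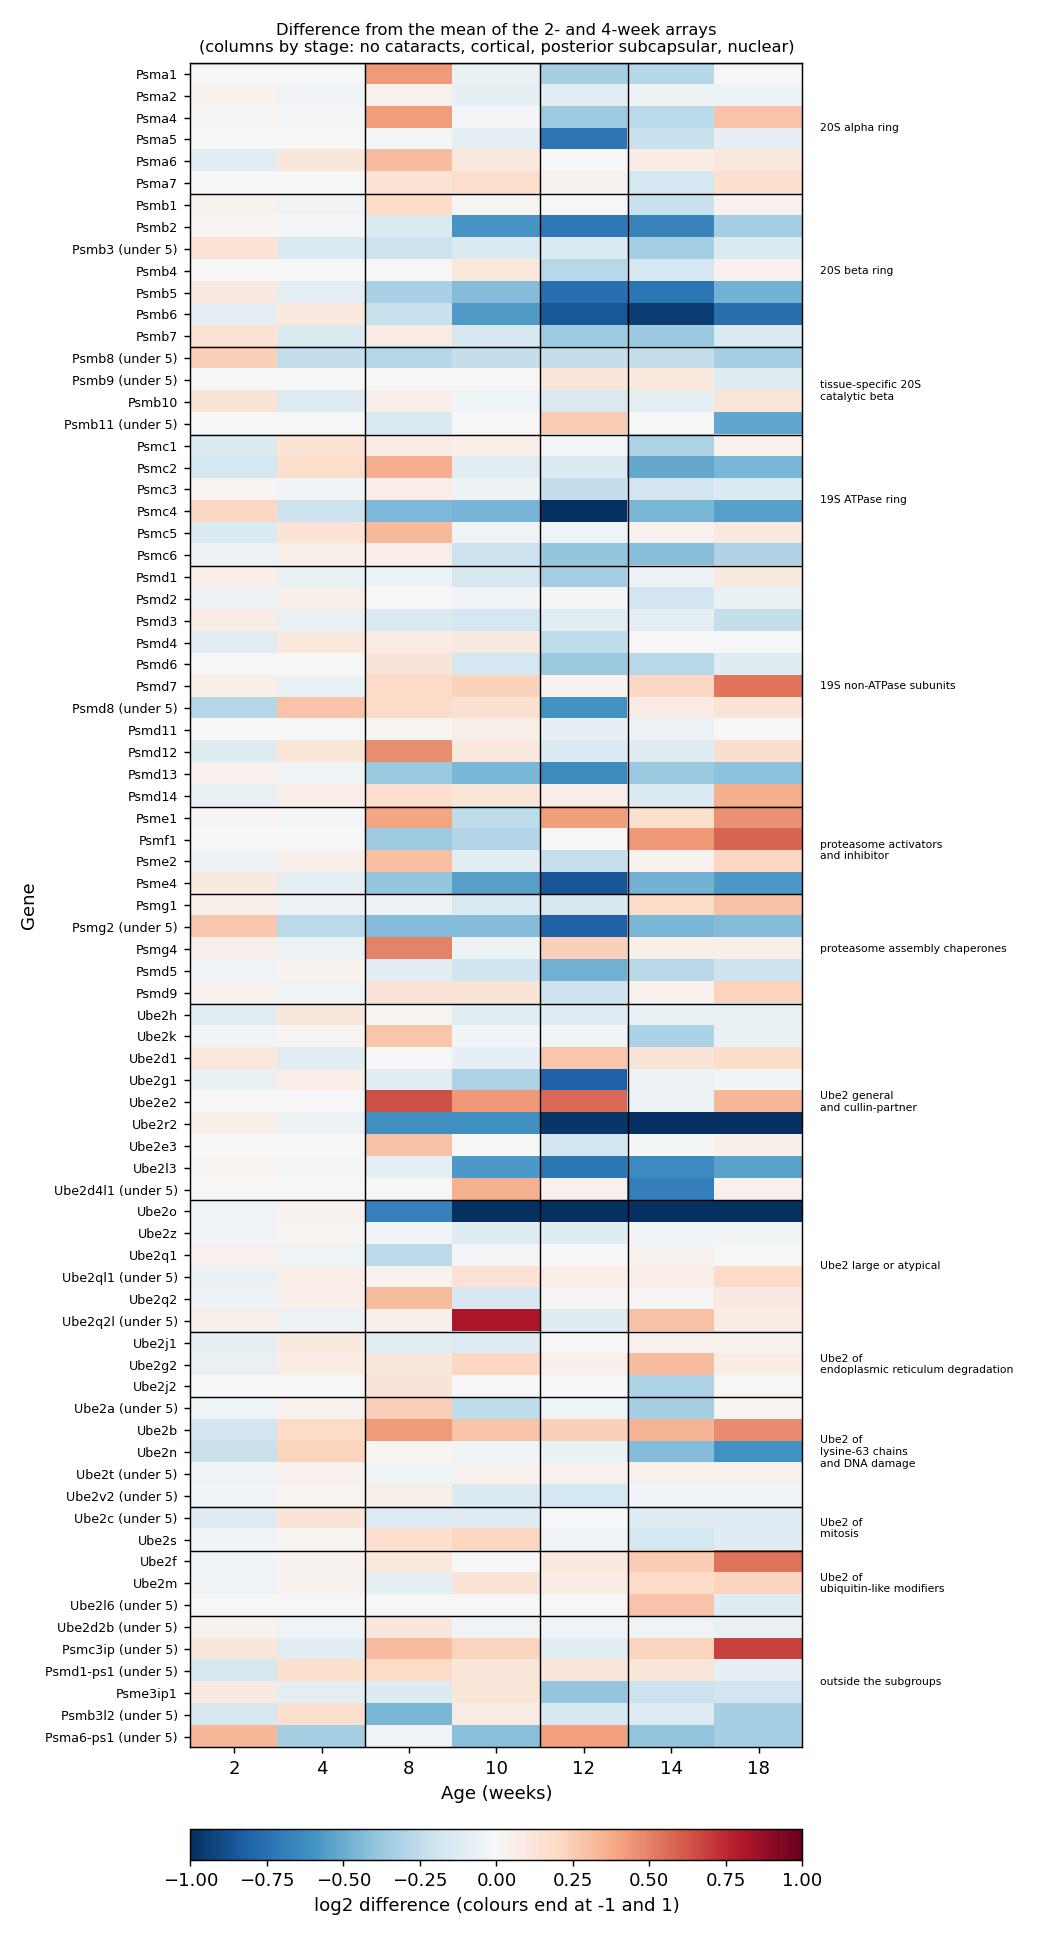
log2 difference of each member (rows, by subgroup) from the mean of the 2- and 4-week arrays, at each age in weeks (columns), with blue for lower, red for higher and vertical lines between stages. The column of 12 weeks holds many blue cells in proteasome rows (the lowest of the 7 signals in 24 of 48, or 14 of 48 after quantile normalization), and Ube2o and Ube2r2 are blue in every column from 8 weeks on.

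Cortical opacity was then compared with no cataracts, the interval in which opacity first appears. No member passed, higher or lower, as was so for all tested genes (0% in each direction). At an unadjusted p under 0.05 in limma there was 1 member higher, against 3.13% of tested genes, and 7 lower, against 12.9%. The differences with the smallest p were -0.61 ± 0.09 in Ube2r2 (SE, adjusted p = 0.114), -0.91 ± 0.17 in Ube2o (adjusted p = 0.128) and, in the 19S subunit Psmd13, -0.41 ± 0.09 (adjusted p = 0.164). Ube2e2, an E2 of the UbcH6 class, was the 1 higher member, with 6.71 and 6.50 in cortical opacity against 6.07 and 6.06 in no cataracts, a difference of 0.54 ± 0.16 (SE, adjusted p = 0.214). A second probe set of Ube2e2 differed by 0.11. Ube2b differed by 0.36 and Ube2s by 0.19. The median was -0.0027 for measured proteasome genes and 0.0 for measured Ube2 genes, against 0.0 for all named genes and -0.07 for tested genes.

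At 12 weeks, in posterior subcapsular opacity, many proteasome genes had their lowest deposited signal. Of 48 measured proteasome genes 37 were lower than the mean of the clear arrays, with a median of -0.16. Of 29 Ube2 genes 15 were lower, with a median of -0.0044. Among tested members, 31 of 38 proteasome and 10 of 20 Ube2 genes were lower, against 69.3% of tested genes. The lowest of the 7 signals was that of 12 weeks in 24 of 48 proteasome genes (50%) and in 7 of 27 Ube2 genes with 1 lowest array (25.9%), against 15.4% of named genes and 25.7% of tested genes. At this age the median was 0.0 over all named genes and -0.13 over tested genes. Quantile normalization moved the median of tested genes to 0.03. After it, 14 of 48 proteasome genes (29.2%) had their lowest signal at 12 weeks, against 16.9% of named genes and 14.9% of tested genes. By this scaling 28 of 48 were lower than in clear lenses, with a median of -0.06. All 7 genes of the 20S beta ring and all 6 of the ATPase ring were below the clear mean as deposited, against 6 of 7 and 3 of 6 after quantile normalization. Psmb5, Psmb6 and Psmb7 were lower under both, with medians of -0.75 and -0.56. The stage has 1 array, so that a property of that array and of the stage cannot be told apart.

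No member passed in posterior subcapsular opacity in limma (0% of tested genes in either direction). At an unadjusted p under 0.05 there was 1 higher member, against 3.48%, and 13 were lower, against 18.4%. Psmc4 differed by -1.02 ± 0.19 (SE, adjusted p = 0.0849), Psma5 differed by -0.72 ± 0.12 (SE, adjusted p = 0.0835), Ube2o by -1.28 ± 0.21 (adjusted p = 0.0835) and Ube2r2 by -0.97 ± 0.11 (adjusted p = 0.0833). Ube2e2, at 6.63, differed by 0.57, Ube2d1, a promiscuous E2, by 0.27 and Psme1 by 0.42. The second probe set of Ube2e2 was at 5.60, between its values of 5.52 and 5.64 in clear lenses.

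**Figure D4:**
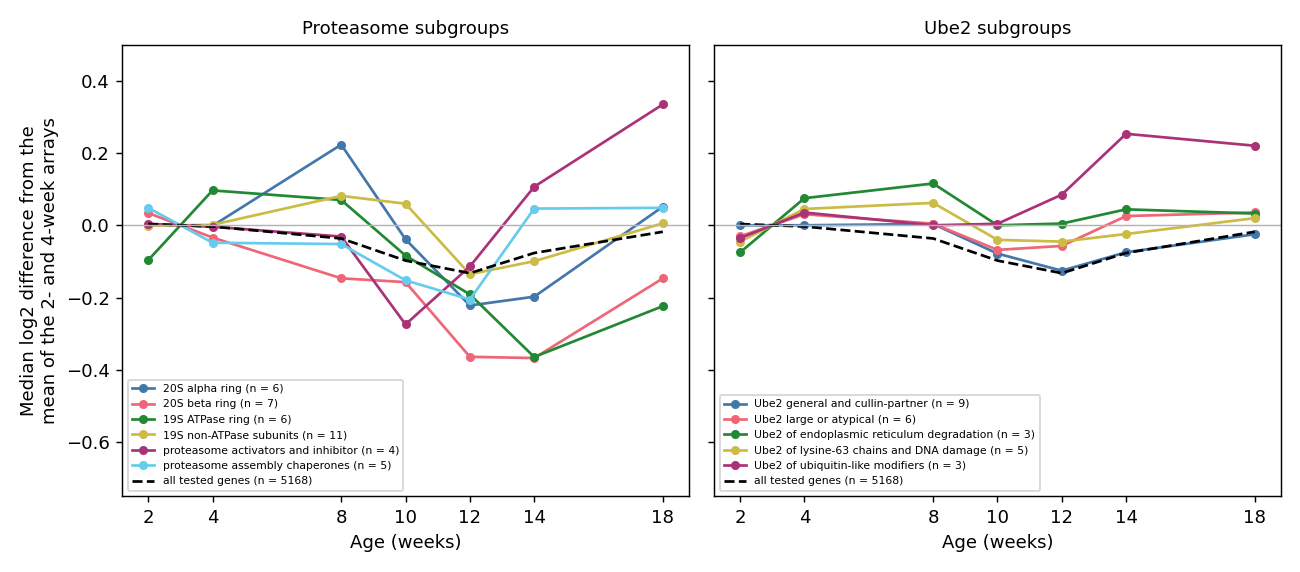
Median log2 difference from the mean of the 2- and 4-week arrays (vertical axis) against age in weeks for subgroups of measured proteasome genes (left) and Ube2 genes (right), with n genes in each and a dashed line for the tested genes. Values are as deposited, and the 20S beta ring is at -0.36 at 12 weeks and -0.37 at 14 weeks, and the activators and inhibitor are at 0.33 at 18 weeks.

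Nuclear and cortical opacity were compared directly. No member passed, against 0.0193% of tested genes higher (1 gene) and 0% lower. At an unadjusted p under 0.05 in limma there were 3 members higher, against 6.73%, and 7 lower, against 4.41%. Psmf1 had the smallest p among members, with 8.53 and 8.68 in nuclear opacity against 7.74 and 7.80 in cortical opacity, a difference of 0.84 ± 0.10 (SE, adjusted p = 0.174). Psmg1, an assembly chaperone of the alpha ring, was at 5.50 and 5.60 in nuclear opacity against 5.26 and 5.16 in cortical opacity, a difference of 0.34. Ube2r2 differed by -0.53 ± 0.09 (SE, adjusted p = 0.245) and Ube2o by -0.68 ± 0.17 (adjusted p = 0.328). Ube2s differed by -0.34, and Ube2f by 0.34. The medians were -0.08 for measured proteasome genes and -0.02 for measured Ube2 genes, against 0.0 for all named genes and 0.02 for tested genes. In nuclear opacity 38 of 48 proteasome and 15 of 29 Ube2 genes were lower. Among tested members, 29 of 38 and 11 of 20 were lower, against 43.9% of tested genes. After quantile normalization 39 of 48 proteasome genes were lower, with a median of -0.11, against -0.0011 for tested genes, and after median centring 34 were lower, with a median of -0.06. By the mean over the arrays of a stage, all 6 genes of the 20S alpha ring were lower in nuclear than in cortical opacity. So were all 7 of the beta ring and all 6 of the ATPase ring, as deposited and under both other scalings. Their medians as deposited were -0.14, -0.19 and -0.19. Single arrays overlapped in genes of the alpha and beta rings and, in the ATPase ring, in Psmc4 and Psmc5. Against the clear mean, the alpha ring median was 0.22, -0.04, -0.20 and 0.05 at 8, 10, 14 and 18 weeks. The beta ring had -0.15, -0.16, -0.37 and -0.15 at these ages, and the ATPase ring 0.07, -0.08, -0.36 and -0.22. The median of the 48 proteasome genes was -0.04 without the 8-week array and -0.05 without the 14-week array.

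A linear trend over the 7 ages was fitted as well. Ube2r2, Ube2o and Psmb6 fell with age, which is 3 of 58 members against 5.03% of tested genes, and none rose, against 3.66%. The slope was -0.084 ± 0.011 log2 units per week in Ube2r2 (SE, limma adjusted p = 0.00677), -0.116 ± 0.016 in Ube2o (adjusted p = 0.00681) and -0.063 ± 0.014 in Psmb6 (adjusted p = 0.0326). Without the 2-week array, none of the 3 passed (adjusted p = 0.0523 for Ube2o, 0.0585 for Ube2r2 and 0.108 for Psmb6). Over 14 alternatives Ube2r2 and Ube2o each passed in 13, and Psmb6 in 7, with adjusted p-values up to 0.126. At an unadjusted p under 0.05, 3 members had a slope above 0, namely Ube2f (0.030), Ube2b (0.030) and Psmd7 (0.027). These fits share arrays with the stage comparisons.

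Other genes of the pathway were taken from lists of enzymes and factors without a Psm or Ube2 symbol. The lists were chosen with earlier results of these data known, and they hold genes that the study had selected as decreased. Counts from them are therefore not a neutral comparison with the shares of tested genes. Of 60 measured genes, 52 reached 5. In limma 3 of these passed in nuclear opacity against no cataracts, all lower, against 4.06% of tested genes, and 4 passed in the age trend, all lower, against 5.03%. Uba1, the main E1 of ubiquitin, had 8.62, 8.46, 7.99, 7.91, 8.03, 7.83 and 7.93 from 2 to 18 weeks. All arrays with opacity were below both clear ones, and the nuclear difference was -0.66 ± 0.10 (SE, limma adjusted p = 0.0337). Fbxo7, an F-box protein that in human cells binds the Psmf1 product, had 6.95, 6.58, 6.12, 5.43, 5.49, 5.37 and 5.32, a nuclear difference of -1.42 ± 0.25 (adjusted p = 0.0416). The third was the ligase Rnf180. Fbxo7 and Rnf180 are, as Ube2o is, among genes the study had selected as decreased at earlier ages. Pomp, the chaperone that closes the core, fell with age by 0.028 per week (adjusted p = 0.0498), and so did Cul5, the cullin that Ube2f serves, by 0.053 (adjusted p = 0.0287). Nfe2l1, the factor known to drive proteasome genes, had 6.61 and 6.56 in nuclear opacity against 6.08 and 6.30 in no cataracts (difference 0.39 ± 0.14, adjusted p = 0.16). Calls of the listed genes come from the same fits as those of members. Their values without the 2-week array or under other alternatives are not given, so they are not to be read as firmer than the member calls.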

How the data were processed

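Lenses had been hybridized to GeneChip Rat Gene 2.0 ST arrays, 1 per age. The authors applied RMA in R. The log2 signals per transcript cluster were taken as deposited. RMA sets the distributions of probe signals alike between arrays, so that changes are relative to other genes, and signals include background, so that dim genes show compressed differences. Precision is limited by the number of arrays. Sprague Dawley lenses and replicate arrays that the methods describe were not analysed here, and 0 per-sample columns were left unused.

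Clusters were named through the platform table, with symbols updated by Entrez identifier in RefSeq (GRCr8). Of 36685 clusters, 18511 had 1 symbol, 575 had several and 17599 had none, and members whose cluster has several symbols were not analysed here. The cluster of highest mean stood for a gene, which mattered for 2 members.

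Stage comparisons used limma 3.58.1 under R 4.3.3, with a constant prior in eBayes, on the 5168 genes reaching 5, with 1 mean per stage over 7 arrays and 5.37 degrees of freedom after moderation. The age trend was a linear fit with 7.90. P-values were adjusted by Benjamini-Hochberg with a threshold of 0.05. The 12-week stage has 1 array, which is assumed to vary like the others. The fit was run on simulated normal values, with shifts larger than the difference of any member. That run does not bear on differences of the size seen here or on tied values. Motifs and counts were computed in Python 3.11.15, and plots drawn with matplotlib 3.10.9.

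The members named were those that passed and, where fewer than 3 passed in a direction, the 3 of smallest p. To these were added the members of highest mean, lowest mean and widest range in each subgroup, those nearest the level of 5, and Ube2o and Ube2r2. Others with values (such as Psmb2, Psmb5, Psmb7, Psme2, Psme4 and Psmb9) were chosen after their values were seen. Members and gene lists were chosen with earlier results of these data known. Alternatives were no filter, a filter at 6, median centring, quantile normalization, a trended and robust prior, the mean over clusters, each array left out, and log2 of age for the trend.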

Additional observations from a re-analysis of the deposited data

How the results depend on the processing

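In each comparison, alternatives were run for the members that passed or had the smallest p, and none of these changed direction there. Over these results, 346 values kept their side of the threshold, 35 no longer passed and 5 newly passed. Most of these values belong to members that did not pass in the main fit, and all 35 belong to members that did. In nuclear opacity against no cataracts, Ube2o passed in 8 of 13 alternatives, and Ube2r2, Psmb6 and Psmf1 in 6 of 13 each.

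For nuclear opacity against no cataracts, the count of members that passed was 0 higher and 0 lower with no filter on low signals, and 5 lower both with the filter at 6 and with the trended and robust prior. Leaving out 1 array gave 0 to 1 higher and 0 to 3 lower, and all 4 calls stayed only without the 12-week array. For posterior subcapsular opacity, 1 member was lower with the filter at 6 and 3 with the trended and robust prior. Leaving out its only array gives no value. For the age trend, 2 members passed as higher after quantile normalization, namely Ube2f (adjusted p = 0.0146) and Psmd7 (adjusted p = 0.0365), in limma. Counts of lower members were 7 with log2 of age, and 0 (without the 2-week array) to 6 (without the 18-week array) with 1 array left out. The cause was not tested.

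Quantile normalization moved the median of tested genes in posterior subcapsular opacity to 0.03, against -0.13 as deposited, and the medians of members moved with it. Proteasome and Ube2 medians became 0.0836 and 0.0521 in cortical, -0.0568 and 0.0679 in posterior subcapsular and -0.0136 and 0.0386 in nuclear opacity against no cataracts, and 0.0007 and 0.0025 per week for the trend. The tested genes had medians of 0.03, 0.03 and 0.02 in the 3 comparisons with no cataracts. In nuclear against cortical opacity the proteasome median was -0.1071, and -0.1168 to -0.0378 with 1 array left out, against -0.0832. By this setting, chosen after seeing the data for this count, 14 proteasome genes had their lowest signal at 12 weeks, against 24 as deposited. With 1 array left out, the Ube2 median was -0.0257 to 0.0541 in cortical opacity against no cataracts and -0.0861 to 0.00 in nuclear against cortical opacity, and the proteasome trend was -0.0129 to -0.0038 per week, against -0.0055 with all arrays. No paired analysis was possible because arrays of different ages come from different animals.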
